A study of Mus musculus with 13 samples.

Results

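The solute carriers (SLC) are the membrane proteins that move sugars, amino acids, metals, nucleosides, ions and metabolites into, out of and between the compartments of a cell. Their genes were followed here in mouse microglia, the resident macrophages of the brain, by ATAC-seq, in which a transposase cuts accessible chromatin and the cuts are counted in peaks. Members were all gene symbols of the form Slc, a family number, the letter a and a member number, with Slc2a1 left out, and all peaks whose nearest transcript start belongs to such a gene and lies within 50 kb. This gave 231 SLC genes of 13874 genes with such a peak, and 656 SLC peaks of 38620 peaks. Each gene was read as a locus, the sum of its peaks, and also peak by peak. After a filter on low counts, 227 SLC loci of 13734 and 631 SLC peaks of 37516 were tested, and Slc10a4, Slc14a2, Slc26a3 and Slc9a3 dropped out as loci. Slc4a1ap, Slc7a6os and Slc2a4rg-ps match the pattern but name no carrier.

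The animals were male C57BL/6J mice injected at 10 weeks of age and collected at 15 weeks, and the microglia were sorted as DAPI-negative, CD11b-high, CD45-intermediate, Ly6C-negative cells. All groups received an injection, then vehicle or BLZ945 by gavage, then another injection 5 weeks after the first. LPS (lipopolysaccharide, from E. coli O111:B4), a bacterial endotoxin, was given at 1 mg/kg into the peritoneum, and PBS was its sham. BLZ945, a CSF1R inhibitor that removes microglia, was started 1 week after the first injection and lasted 5 days (169 mg/kg daily), after which microglia could repopulate the brain; its vehicle was HPβCD. All animals were collected 3 hours after the last injection. Group PP had PBS, vehicle and PBS, and group PBP had PBS, BLZ945 and PBS. Group PL had PBS, vehicle and LPS, and group PBL had PBS, BLZ945 and LPS, so both met LPS for the first time. Group LL had LPS, vehicle and LPS, and group LBL had LPS, BLZ945 and LPS, so both met it again. Each library pooled 40000 cells from each of 2 animals, with 3 libraries in PBL and 2 in every other group, 13 in all. A site that is open in fewer cells and a site that is less open in each cell cannot be told apart in such pools.

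Libraries held 927840 to 2772688 counts in peaks, and SLC peaks took 1.55% to 1.58% of them in every library. Of the 12 microglial marker genes 11 had a tested locus, with a summed level of 1494 to 2020 CPM (CPM are counts scaled to library totals and TMM factors). The library PL 3_4 stood apart, with 53.2% of its counts in promoter peaks against 55.5% to 60.1% in the other libraries. PP, PBP and PL were sorted on one cell sorter and PBL, LL and LBL on another, so PBL vs PBP, LL vs PL and PBL vs PL also compare sorters, and both differences of responses hold a change of sorter in 1 of their 2 terms. The sorter and the treatment cannot be told apart in any of these. The summed level of the 4 endothelial marker loci with a tested locus, of 5 listed, was 166 to 182 CPM in PP, 136 to 149 in PBP, 212 to 230 in PL, 233 to 259 in PBL, 205 in both LL libraries and 198 to 210 in LBL. For the 2 of 8 neuronal markers with a tested locus it was 62 to 62.7 CPM in PP, 44.4 to 50.8 in PBP, 35.9 to 36.3 in PL and 33.5 to 41.3 in PBL, and Slc17a7, Slc17a6 and Slc32a1, which define neurons, had no tested locus. For the 2 of 5 lymphocyte markers with a tested locus it was 26.9 to 27.3 CPM in PP, 31.5 to 39.9 in PL, 21 to 22.8 in PBP and 31 to 33.5 in PBL. The microglial sum itself was 1869 to 2020 CPM in PBP and 1518 to 1530 in PBL, and 1611 to 1655 in PP and 1494 to 1629 in PL. The 2 of 6 astrocyte markers with a tested locus, Aldh1l1 and Slc4a4, reached 108 CPM in 1 PL library and at most 82.4 in the libraries of the other groups. Slc4a4 is itself an SLC member and averaged 62 CPM over all libraries, so this sum is not separate from the members. The part of any of these cell types in the results below was not tested.

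As background, macrophages that sense LPS through Toll-like receptor 4 change their handling of metals, cystine and mitochondrial metabolites. Slc39 and Slc11 carriers bring metals into the cytosol and Slc40a1 exports iron, cystine taken up by Slc7a11 in exchange for glutamate feeds glutathione synthesis, and Slc25 carriers link the mitochondrial matrix with the cytosol. Accessibility reports on regulatory DNA and not on transcript or protein amounts.

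Promoters of 4 genes are shown because their peaks changed with LPS or with repopulation. Each is the 250 bases before the RefSeq start of the gene on GRCm38.p6, written 5′ to 3′ on the strand of the gene. The Slc7a11 promoter (chr3:50443614-50443863, minus strand) lies wholly inside a peak that was higher after LPS in both arms, and capitals mark its 2 matches to the amino acid response element TGATGCAA, one on each strand. The Slc7a1 promoter (chr5:148399905-148400154, minus strand) and the Slc37a2 promoter (chr9:37255739-37255988, minus strand) each hold 1 match to the AP-1 motif TGANTCA, in capitals, although their peaks moved in opposite directions, and the Slc7a1 promoter also holds 1 match to the antioxidant response element core TGACNNNGC. The Slc25a10 promoter (chr11:120491587-120491836, plus strand) held none of the 7 motifs searched.
Slc7a11: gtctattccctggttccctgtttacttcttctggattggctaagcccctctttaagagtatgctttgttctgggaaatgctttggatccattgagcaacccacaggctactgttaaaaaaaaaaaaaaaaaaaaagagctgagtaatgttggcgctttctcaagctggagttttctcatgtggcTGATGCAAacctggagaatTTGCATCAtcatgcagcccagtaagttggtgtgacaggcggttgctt
Slc7a1: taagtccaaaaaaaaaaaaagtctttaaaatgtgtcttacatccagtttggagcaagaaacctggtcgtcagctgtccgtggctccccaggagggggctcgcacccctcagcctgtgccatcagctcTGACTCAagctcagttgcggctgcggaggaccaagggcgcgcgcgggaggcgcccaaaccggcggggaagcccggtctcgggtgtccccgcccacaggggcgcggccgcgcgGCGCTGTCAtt
Slc37a2: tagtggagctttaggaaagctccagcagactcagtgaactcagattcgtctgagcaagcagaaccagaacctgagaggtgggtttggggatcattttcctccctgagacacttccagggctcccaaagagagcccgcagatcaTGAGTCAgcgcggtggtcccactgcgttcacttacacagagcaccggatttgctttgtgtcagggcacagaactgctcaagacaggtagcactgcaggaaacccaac
Slc25a10: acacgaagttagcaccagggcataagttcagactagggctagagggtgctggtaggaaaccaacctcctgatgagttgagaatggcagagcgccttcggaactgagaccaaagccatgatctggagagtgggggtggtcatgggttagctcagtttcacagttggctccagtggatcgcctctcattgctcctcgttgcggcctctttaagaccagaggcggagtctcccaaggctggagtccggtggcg
Motifs were searched on both strands in all 32851 RefSeq windows of 250 bases, and AP-1 and antioxidant matches can overlap. The amino acid response element was in 0.791% of all windows and 1.73% of the 231 windows of SLC genes (174 genes, some with several starts), AP-1 in 6.75% and 5.19%, and the antioxidant core in 10.2% and 15.2%. The other motifs, kappa B, the hypoxia response element core (ACGTG), the ETS core (CAGGAAGT) and the interferon-stimulated response element, were in 0.356%, 16.6%, 2.69% and 2.98% of all windows. A match is a description of these letters.

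The median locus had 2 peaks, 96 of the 231 had 1 peak, and Slc38a1 had 15. A promoter peak was present at 164 loci and absent at 67. Mean accessibility per length had a median of 48.9 CPM per kb over the tested loci and ran from 3.64 to 136. Slc25a42, which carries coenzyme A into mitochondria, stood highest per length at 136 CPM per kb, followed by the thiamine transporter Slc19a2 at 123 and the lysosomal peptide transporter Slc15a3 at 108. Slc25a42, Slc19a2 and Slc38a1 were named after their values were seen.

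In microglia that had not been depleted, a first LPS injection was followed by higher accessibility at 15 SLC loci and lower accessibility at 10 of 227 (PL vs PP, edgeR quasi-likelihood test, adjusted p below 0.05). This is 11.0% of the SLC loci. Of all loci 10.6% were called in the same comparison, 6.54% higher and 4.07% lower, so the SLC share lay near the background. The median log2 fold change was 0.01 over the SLC loci and 0.00 over all loci. In repopulated microglia (PBL vs PBP), 13 SLC loci were higher and 8 lower, or 9.25%, against 7.47% of all loci (5.15% higher and 2.32% lower). By peak, 26 were higher and 13 lower of 631 in PL vs PP (6.18%, with 7.46% of all peaks called, 4.77% higher and 2.69% lower), and 44 higher and 20 lower in PBL vs PBP (10.1%, with 9.96% of all peaks called, 6.74% higher and 3.23% lower). These 2 LPS responses share no library. Calls depended on single libraries. Calls over all loci were not counted in the runs that left out a library, so their SLC counts have no background share beside them. With PL 3_4 left out PL vs PP called 4 loci, and with PL 1_2 left out 49. Leaving out PP 1_2 gave 8, and leaving out PP 3_4 gave 7. PBL vs PBP called 7 when PBP 1_2 was left out. PL 3_4 was isolated on the day of both PP libraries, so the run without PL 1_2 compares libraries of 1 day. That run has 1 PL library, and its spread was estimated over all libraries kept, also those of other days. The 13 libraries came from 5 isolation days, and the part of the day was not tested.

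**Figure D1:**
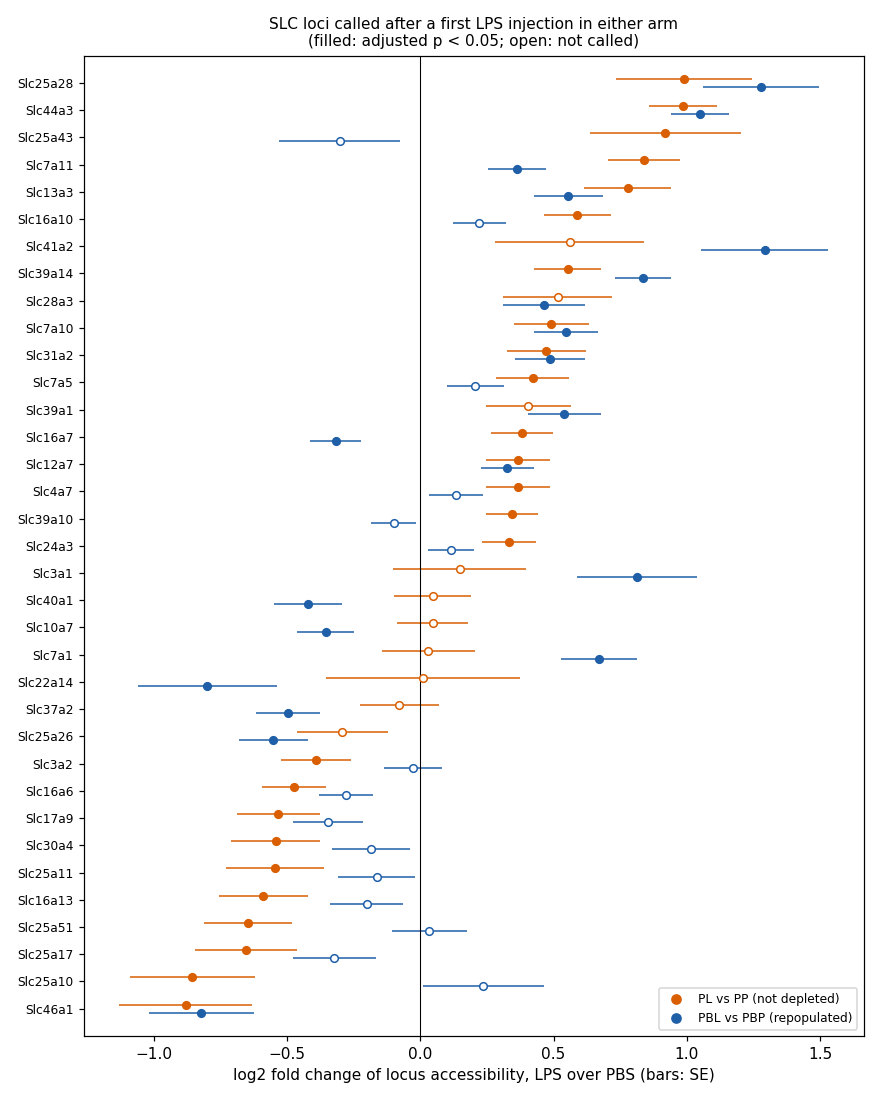
Log2 fold change of accessibility (x axis, LPS over PBS, bars are the SE) for the 36 SLC loci called in either arm except 1 that is not reported here, ordered by the PL vs PP value; filled points were called. Slc44a3 and Slc25a28 lie to the right in both arms, Slc46a1 to the left in both, and Slc16a7 on opposite sides of 0.

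Higher in both arms were Slc44a3, Slc25a28, Slc7a11, Slc13a3, Slc39a14, Slc7a10, Slc31a2 and Slc12a7, which is 53.3% of the SLC loci higher in PL and 61.5% of those higher in PBL. The matching shares over all loci were not counted, so these percentages are a description. Slc46a1 was lower in both, and Slc16a7 was higher in PL and lower in PBL. DESeq2 called Slc44a3, Slc25a28, Slc13a3 and Slc39a14 in both arms, Slc7a11 in PL vs PP alone and Slc7a10 in PBL vs PBP alone. It called Slc31a2, Slc12a7, Slc46a1 and Slc16a7 in neither arm. Of these, Slc31a2 and Slc12a7 are outside the naming rule and were named after their values were seen. The Slc12a7 call was kept in 1 of 4 leave-one-out runs in PL vs PP and 1 of 5 in PBL vs PBP, and that of Slc31a2 in 1 of 4 and 3 of 5. Both genes were lost in PL vs PP without PP 1_2, PP 3_4 or PL 3_4.

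Slc44a3, a choline transporter-like protein, had the smallest p-value of the SLC loci in both arms. Its locus stood at 107 and 95.6 CPM in PP, 184 and 217 in PL, 85.5 and 94.3 in PBP, and 168, 191 and 192 in PBL, so no LPS library overlapped a PBS library. The log2 fold change was 0.98 ± 0.128 (SE) in PL vs PP (edgeR adjusted p = 6.58e-08) and 1.05 ± 0.110 in PBL vs PBP (edgeR adjusted p = 3.45e-11), and leaving out any 1 library kept both calls. Among its peaks an intergenic one lay 38153 bp upstream of the start (chr3:121570557-121571078) and was called in both arms (1.88 ± 0.229 and 1.59 ± 0.188, edgeR adjusted p = 3.36e-10 and 1.72e-11). That peak read 21 and 20 CPM in PP, 66.4 and 84.1 in PL, 20.7 and 24.1 in PBP, and 61.1, 72.2 and 66.7 in PBL. After the second injection it read 64.9 and 57.9 CPM in LL and 53.3 and 48.2 in LBL, all above every PBS library, and neither difference from the first injection was called (edgeR adjusted p = 0.617 and 0.138).

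Slc7a11 is the cystine-glutamate exchanger. Its promoter peak (chr3:50443344-50444003), the one whose sequence is printed above, read 18.9 and 19 CPM in PP, 41.5 and 52.2 in PL, 23.2 and 25.6 in PBP, and 40.7, 42.6 and 41.1 in PBL. The groups did not overlap in either arm. The log2 fold change of the promoter peak was 1.31 ± 0.257 in PL vs PP (edgeR adjusted p = 0.000145) and 0.77 ± 0.202 in PBL vs PBP (edgeR adjusted p = 0.00437), the latter lost without PBP 1_2. As a locus Slc7a11 rose by 0.84 ± 0.135 in PL vs PP (edgeR adjusted p = 9.97e-06), kept whichever library was left out. In PBL vs PBP the locus rose by 0.36 ± 0.109 (edgeR adjusted p = 0.0240), and that call was kept in 2 of 5 such runs, with a log2 fold change of 0.20 to 0.51, and lost without PBP 1_2, PBL 3_4 or PBL 4_5.

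**Figure D2:**
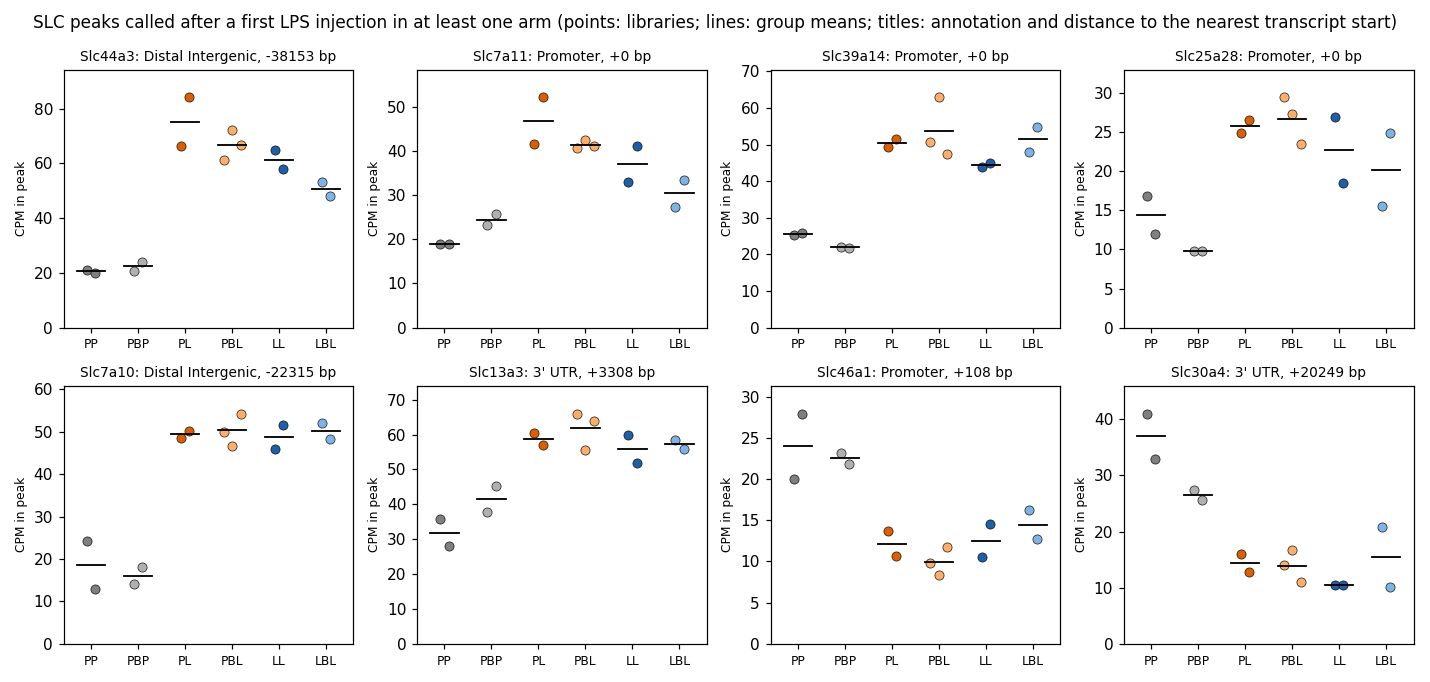
CPM (y axis) in 8 SLC peaks for every library (points) of the 6 groups, with group means (lines); panel titles give the annotation and the signed distance to the nearest start in bp. The levels of the Slc44a3 peak run from 20 CPM in PP to 84.1 in PL, and the Slc46a1 and Slc30a4 peaks are lower in the LPS groups.

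Among the 25 metal transporters, 4 loci were higher and 1 lower in PBL vs PBP, where 7.47% of all loci were called. In PL vs PP, where 10.6% of all loci were called, 3 were higher and 1 lower. Slc39a14, a zinc and iron importer (ZIP14), was higher in both arms. The locus rose by 0.55 ± 0.125 in PL vs PP (edgeR adjusted p = 0.00140) and by 0.83 ± 0.105 in PBL vs PBP (edgeR adjusted p = 8.56e-09), the latter kept in all 5 leave-one-out runs and the former in 2 of 4. One of its 3 promoter peaks (chr14:70333397-70334309) lies inside the gene. That peak stood at 25.2 and 25.9 CPM in PP, 49.2 and 51.7 in PL, 22 and 21.9 in PBP, and 50.6, 62.9 and 47.3 in PBL, with no overlap. The PL vs PP call of this peak was lost without either PP library, and that of the locus without PP 1_2 or PL 3_4. A peak outside the gene, 3310 bp upstream of its nearest start, read 2.44 and 3.02 CPM in PBP and 19.7, 18.5 and 16.9 in PBL (log2 fold change 2.71 ± 0.402, edgeR adjusted p = 6.72e-08). The same peak read 6.31 and 7.98 in PP and 7.71 and 13.3 in PL, where it was not called (edgeR adjusted p = 0.488). The difference between these 2 responses did not pass the test either (2.15 ± 0.671, edgeR adjusted p = 0.168).

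Slc40a1, ferroportin, the iron exporter, was lower in PBL vs PBP by 0.42 ± 0.127 (edgeR adjusted p = 0.0237, kept in 1 of 5 leave-one-out runs) and gave 0.05 ± 0.144 in PL vs PP (edgeR adjusted p = 0.881). Slc41a2, a magnesium transporter, rose by 1.29 ± 0.237 in PBL vs PBP (edgeR adjusted p = 5.37e-05) and gave 0.56 ± 0.279 in PL vs PP (edgeR adjusted p = 0.197). Slc30a4, a zinc exporter into vesicles, fell by 0.54 ± 0.168 as a locus in PL vs PP (edgeR adjusted p = 0.0247), kept in 1 of 4 leave-one-out runs and lost without PP 1_2, PP 3_4 or PL 3_4 (edgeR adjusted p up to 0.307). Its peak in the 3′ UTR, 20249 bp from the start, read 41 and 32.9 CPM in PP and 16 and 12.8 in PL, and 27.5 and 25.6 in PBP and 14, 16.7 and 11 in PBL. It was lower in both arms (edgeR adjusted p = 0.000296 and 0.00302), kept in all 4 runs in PL vs PP and lost without PBP 1_2 or PBL 4_5 in PBL vs PBP. The Slc41a2 call was lost without PBP 1_2.

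Among the 37 mitochondrial carriers, PL vs PP called 2 higher and 4 lower, where 10.6% of all loci were called. PBL vs PBP called 1 higher and 1 lower, where 7.47% of all loci were. Slc25a28, a mitochondrial iron importer, was the member higher in both arms. Its locus stood at 26.9 and 18.9 CPM in PP, 42.8 and 47.6 in PL, 16.5 and 21 in PBP, and 48.7, 46.8 and 41 in PBL. The log2 fold changes were 0.99 ± 0.254 (edgeR adjusted p = 0.00543) and 1.28 ± 0.216 (edgeR adjusted p = 1.11e-05). The PL vs PP call was lost without PP 3_4 or PL 3_4, and the PBL vs PBP call was kept in every run. The 4 lower members in PL vs PP were Slc25a10, Slc25a51, Slc25a17 and Slc25a11, and none of them was called without PL 3_4. Slc25a11 and Slc25a17 are outside the naming rule and were named after their values were seen. The Slc25a11 peak also overlaps Rnf167.

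Slc25a10, the mitochondrial dicarboxylate carrier, separated PP from every other group. Its promoter peak read 48.4 and 41.9 CPM in PP and 18.3 to 30.2 CPM in all 11 other libraries. It fell by 0.90 ± 0.240 in PL vs PP (edgeR adjusted p = 0.00845) and the locus, with this peak in it, by 1.14 ± 0.250 in PBP vs PP (edgeR adjusted p = 0.0248; 0.0229 for the peak alone). It was the single SLC peak and single SLC locus called between repopulated and original microglia at rest, where 0.16% of all peaks (0.096% lower) and 0.116% of all loci (0.0874% lower) were called. These comparisons share the PP libraries, and the PBP vs PP call was lost whichever of the 4 libraries was left out (edgeR adjusted p 0.105 to 0.332 for the locus and 0.0832 to 0.456 for the peak). The PL vs PP calls of peak and locus were lost without PP 1_2 or PL 3_4.

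The amino acid transporters numbered 40, of which 3 were higher and 1 lower in PL vs PP, where 10.6% of all loci were called. In PBL vs PBP, where 7.47% of all loci were called, 4 were higher and none lower. Besides Slc7a11, Slc7a10 was higher in both, by 0.49 ± 0.141 (edgeR adjusted p = 0.0141) and 0.55 ± 0.121 (edgeR adjusted p = 0.000932). Slc7a10 carries small neutral amino acids, and its locus calls were lost without PP 1_2 or PP 3_4 in the first arm and without PBP 1_2 in the other. An intergenic peak 22315 bp upstream of it read 13 and 24.2 CPM in PP, 48.6 and 50.1 in PL, 14 and 18.1 in PBP and 46.7 to 54.3 in PBL, and stayed at 45.9 to 52 CPM in LL and LBL. On the other side the nearest gene of that peak was Cebpa, 41628 bp away, so the peak is assigned to Slc7a10 by distance alone. Slc7a5 and Slc3a2 encode the light and heavy chain of 1 transporter of large neutral amino acids. In PL vs PP, Slc7a5 rose by 0.42 ± 0.138 (edgeR adjusted p = 0.0347) and Slc3a2 fell by 0.39 ± 0.131 (edgeR adjusted p = 0.0397), and neither was called when PL 3_4 was left out, nor in PBL vs PBP (0.21 ± 0.107 and -0.03 ± 0.108).

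Slc7a1, a cationic amino acid transporter, rose in PBL vs PBP by 0.67 ± 0.143 (edgeR adjusted p = 0.000565) and gave 0.03 ± 0.174 in PL vs PP. Slc7a1 was itself on the endothelial marker list, whose summed level was 136 to 149 CPM in PBP and 233 to 259 in PBL. Its part in that sum was not tested, and the call was lost without PBP 3_4. Slc37a2, a sugar phosphate exchanger of macrophages, fell in PBL vs PBP by 0.50 ± 0.120 (edgeR adjusted p = 0.00274) and gave -0.08 ± 0.146 in PL vs PP. The Slc37a2 locus and promoter peak calls were lost without PBP 3_4. Both promoter peaks moved the same way as the loci, at 0.55 ± 0.161 for Slc7a1 (edgeR adjusted p = 0.0137, kept in 2 of 5 runs) and -0.67 ± 0.162 for Slc37a2 (edgeR adjusted p = 0.00171).

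**Figure D3:**
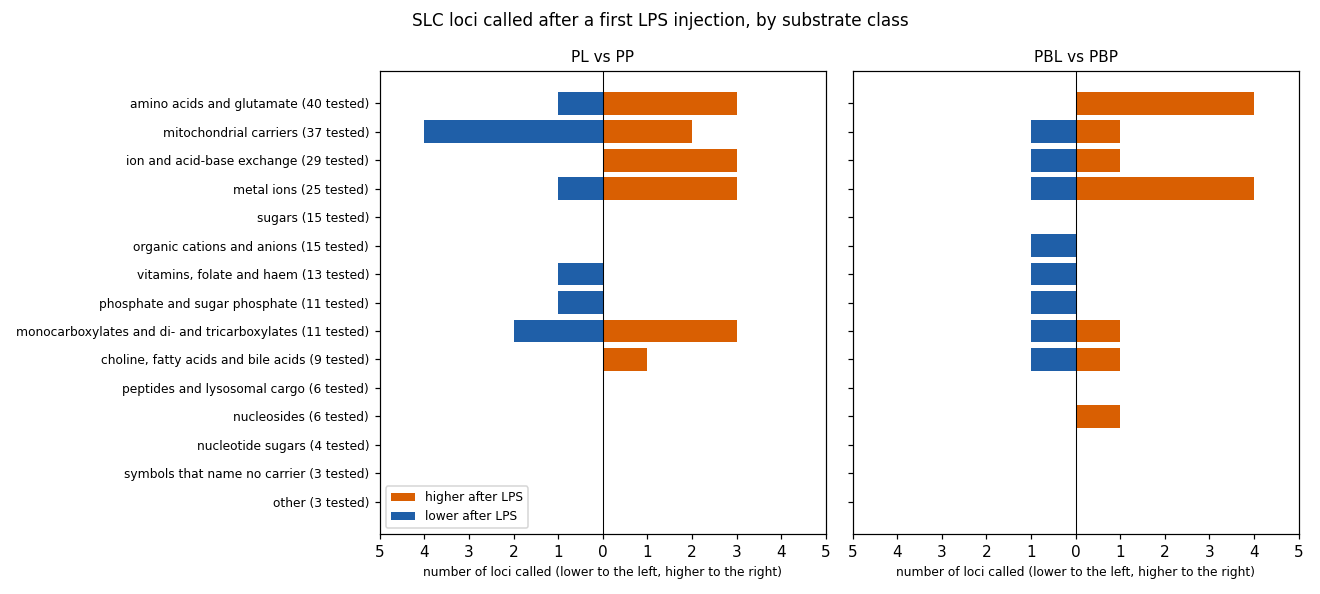
Number of SLC loci called higher (right) or lower (left) after a first LPS injection, by substrate class (y axis, with the number tested), for PL vs PP and PBL vs PBP. Neither arm had a call among the 15 loci of the sugar class or the 6 of the peptide and lysosomal class. The 4 nucleotide sugar loci and the 3 tested loci of the class named other also had none. Classes follow family numbers, so a class name need not fit every member. The share called among all loci was 10.6% without depletion and 7.47% after repopulation, so the absence of calls in classes this small is a description.

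Among 11 carboxylate transporters, PL vs PP called 3 higher and 2 lower, where 10.6% of all loci were called, and PBL vs PBP called 1 higher and 1 lower, where 7.47% were. Slc13a3, a sodium-dependent importer of dicarboxylates, rose by 0.78 ± 0.164 in PL vs PP (edgeR adjusted p = 0.000617, kept in all 4 leave-one-out runs) and by 0.56 ± 0.129 in PBL vs PBP (edgeR adjusted p = 0.00176, lost without PBP 1_2). Slc16a10, which carries aromatic amino acids, rose by 0.59 ± 0.125 in PL vs PP (edgeR adjusted p = 0.000704), and Slc16a6 and Slc16a13 fell by 0.47 ± 0.119 and 0.59 ± 0.167 (edgeR adjusted p = 0.00447 and 0.0131). All 3 of these calls were lost without PL 3_4. Slc16a10 and Slc16a6 were kept in 2 of 4 runs and Slc16a13 in 1 of 4. The Slc16a6 peak called in PL vs PP also overlaps Arsg. Slc46a1, the proton-coupled folate transporter, was the member lower in both arms. It fell by 0.88 ± 0.249 in PL vs PP (edgeR adjusted p = 0.0131) and by 0.82 ± 0.197 in PBL vs PBP (edgeR adjusted p = 0.00263). The call was lost without PP 3_4 or PL 3_4 in PL vs PP and without PBP 1_2 in PBL vs PBP. Its promoter peak read 20 and 27.9 CPM in PP, 13.6 and 10.7 in PL, 23.2 and 21.9 in PBP, and 9.83, 8.33 and 11.7 in PBL, and its PL vs PP call was kept in 1 of 4 runs.

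In one arm and not in the other, further loci passed the threshold, and of these differences between arms none passed the test of the difference. The vesicular nucleotide transporter Slc17a9 fell by 0.53 ± 0.156 in PL vs PP (edgeR adjusted p = 0.0169) and gave -0.35 ± 0.131 in PBL vs PBP (edgeR adjusted p = 0.100). The Slc17a9 call was kept in 1 of 4 runs, lost without PP 1_2, PP 3_4 or PL 3_4. The mitochondrial carrier for S-adenosylmethionine, Slc25a26, fell by 0.55 ± 0.129 in PBL vs PBP (edgeR adjusted p = 0.00191) and gave -0.29 ± 0.169 in PL vs PP (edgeR adjusted p = 0.281). Slc3a1, the heavy chain of the cystine and dibasic amino acid transporter, rose by 0.81 ± 0.225 in PBL vs PBP (edgeR adjusted p = 0.0112) and gave 0.15 ± 0.248 in PL vs PP (edgeR adjusted p = 0.766). Its locus has 2 peaks and no promoter peak. The called peak overlaps another gene, Ppm1b, and lies 8957 bp from Slc3a1, so it is assigned to Slc3a1 by distance alone. The Slc25a26 and Slc3a1 calls were lost without PBP 1_2. Slc17a9 and Slc3a1 are outside the naming rule and were named after their values were seen.

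Of 30 transporters listed for known roles in myeloid metabolism, 29 had a locus (Slc7a2 had none), 7 were called in PL vs PP (10.6% of all loci were), 7 in PBL vs PBP (7.47% of all loci were) and 19 in no comparison. The list was chosen with earlier results of these data known, so these counts are a description. Among those 19 were the fructose transporter Slc2a5, the lactate exporter Slc16a3, the glutamate transporter Slc1a3 and the glutamine transporters Slc1a5 and Slc38a2. For Slc2a5 the PL vs PP value was 0.04 ± 0.132 and the PBL vs PBP value -0.17 ± 0.109, and Slc16a3 gave -0.09 ± 0.166 and -0.04 ± 0.133. Slc1a3 gave 0.13 ± 0.106 and -0.10 ± 0.0896. A value that misses the threshold does not show that the locus did not change.

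In PL vs PP, 3 of 233 SLC promoter peaks were higher (1.29%) and 9 lower (3.86%), next to 2.25% and 4.64% of all promoter peaks. Of 398 SLC peaks outside promoters 23 were higher (5.78%) and 4 lower (1.01%), next to 6.24% and 1.55% of all such peaks, so the split resembled that of all genes. In PBL vs PBP, 12 SLC promoter peaks were higher (5.15%) and 5 lower (2.15%), next to 3.00% and 1.49% of all promoter peaks, and 32 others were higher (8.04%) and 15 lower (3.77%), next to 8.91% and 4.23% of all. Slc24a3, Slc7a8 and Slc9a7 held peaks called in both directions in PBL vs PBP, and Slc9a7 is outside the naming rule. Slc24a3 encodes a potassium-dependent sodium-calcium exchanger. Its peak 16009 bp upstream of the nearest transcript start read 23.1 and 27.9 CPM in PP and 58.1 and 77.8 in PL. In the other arm this peak read 28.1 and 37.7 in PBP and 57.6, 69.4 and 57.2 in PBL. Another of its peaks, 8187 bp upstream of its nearest start, was lower by 0.64 in PBL vs PBP (edgeR adjusted p = 0.00189). Both peaks overlap the RefSeq span of Slc24a3, so they are measured from a start inside the gene. Both PBL vs PBP calls were lost without PBP 1_2.

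After a second LPS injection, few SLC sites were called as different from a first. No SLC locus was called in LL vs PL by edgeR, where 0.0437% of all loci were, and DESeq2 called 0. An unadjusted p under 0.05 was reached by 13 of 227 SLC loci. The same count over all loci was not made, so this number has no background share and is no sign of change. In LBL vs PBL, 1 locus was higher and 2 lower, with 1.21% of all loci called (0.706% higher and 0.502% lower). By peak, 2 were lower in LL vs PL (0.064% of all peaks called, 0.0506% lower) and 4 were higher and 8 lower in LBL vs PBL (1.9% of all peaks called, 0.973% higher and 0.928% lower). These comparisons share the PL and PBL libraries with the LPS responses above, so values are given side by side. Neither level had a call for the difference between the LBL vs PBL and LL vs PL effects by edgeR, and DESeq2 called 0. At an unadjusted p under 0.05 there were 8 of 227 SLC loci and 41 of 631 SLC peaks, again without a count over all features.

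Slc11a1 (NRAMP1) pumps iron and manganese out of the phagosome of macrophages. A peak at a start inside the gene (chr1:74381455-74382023) was lower after the second injection in both arms. It read 12.6 and 16 CPM in PP, 12.8 and 12.1 in PBP, 23.7 and 26.6 in PL, 26.7, 36.1 and 35.2 in PBL, 11 and 10.9 in LL, and 11.7 and 11.7 in LBL. The libraries of a second injection all lay below those of PBS, a comparison that was not tested, and every library of a first injection lay above both. The change was -1.20 ± 0.262 in LL vs PL (edgeR adjusted p = 0.0243) and -1.51 ± 0.236 in LBL vs PBL (edgeR adjusted p = 1.12e-05). The rise was 1.42 ± 0.245 in PBL vs PBP (edgeR adjusted p = 4.47e-06) and 0.81 ± 0.309 in PL vs PP, which was not called (edgeR adjusted p = 0.0888). Both PBL calls were kept in all 5 leave-one-out runs. The LL vs PL call was lost without PL 3_4, LL 1_2 or LL 3_4 (log2 fold change -1.28 to -1.11, adjusted p up to 0.350). The upstream promoter peak of Slc11a1 (chr1:74374994-74375759) stood at 57.4 to 72.8 CPM in all 13 libraries and was called in no comparison, and the summed locus was called in none either.

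**Figure D4:**
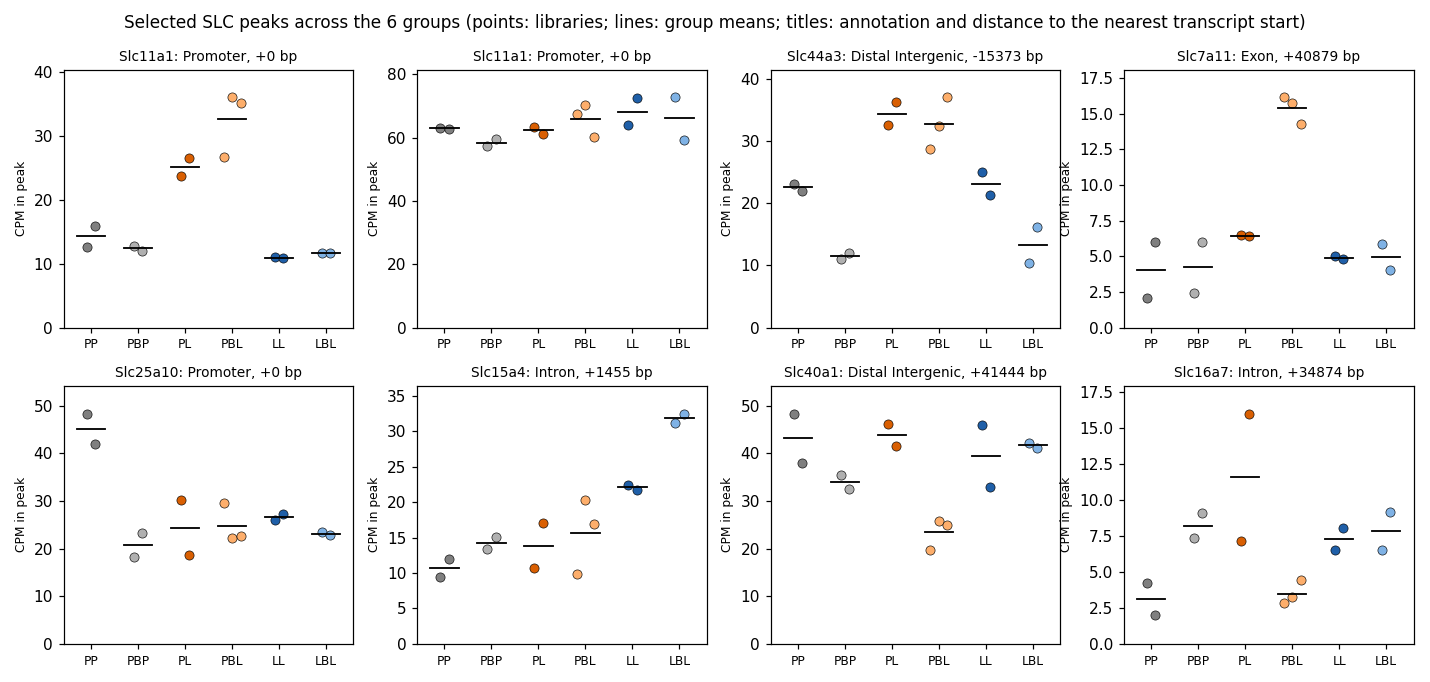
CPM (y axis) in 8 SLC peaks for every library (points) of the 6 groups, with group means (lines); panel titles give the annotation and the signed distance to the nearest start in bp. The inner Slc11a1 peak (top left) is at 23.7 to 36.1 CPM in PL and PBL and at 10.9 to 16 elsewhere, while its upstream promoter peak (next to it) lies between 57.4 and 72.8 CPM in every library.

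Slc44a3 and Slc7a11 each had a further peak that was lower in LBL than in PBL. The Slc44a3 peak 15373 bp upstream of the start read 28.8, 32.4 and 37 CPM in PBL and 10.4 and 16.2 in LBL (-1.29 ± 0.229, edgeR adjusted p = 0.000154, lost without LBL 1_2), next to 11 and 12.1 in PBP. In the arm without depletion it read 23.1 and 22 in PP, 32.6 and 36.2 in PL and 25 and 21.3 in LL, and was not called there (edgeR adjusted p = 0.143 and 0.390). The Slc7a11 peak 40879 bp inside the gene read 16.2, 15.7 and 14.3 CPM in PBL and 2.1 to 6.52 CPM in every other library. It was higher in PBL vs PBP by 1.89 ± 0.371 (edgeR adjusted p = 6.44e-05) and lower in LBL vs PBL by 1.64 ± 0.333 (edgeR adjusted p = 0.00114), but PBL vs PL missed the threshold (1.23 ± 0.308, edgeR adjusted p = 0.0716). Its calls were lost without PBP 1_2 and without LBL 3_4.

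Slc15a4, a lysosomal transporter of histidine and peptides that serves Toll-like receptor signalling, was the locus higher in LBL vs PBL. It stood at 106, 130 and 117 CPM in PBL and 171 and 160 in LBL (0.48 ± 0.0987, edgeR adjusted p = 0.00283), and the call was lost without either LBL library. Its peak in intron 2 read 9.47 and 12 CPM in PP, 13.4 and 15.1 in PBP, 10.7 and 17 in PL, 9.83, 20.4 and 16.9 in PBL, 22.5 and 21.7 in LL and 31.2 and 32.5 in LBL, so all 4 libraries of a second injection were above all 9 others. That peak was called in LBL vs PBL (0.96 ± 0.215, edgeR adjusted p = 0.00429, lost without either LBL library) and not in LL vs PL (0.65 ± 0.263, edgeR adjusted p = 0.464). The zinc importer Slc39a4 and the nucleoside transporter Slc28a1 were lower in LBL vs PBL, at 5.02 ± 0.898 against 13.3 ± 1.01 CPM and 7.52 ± 1.35 against 16.8 ± 4.59 CPM (SD over the 2 and 3 libraries; edgeR adjusted p = 0.0158 and 0.0236). Both calls were lost without PBL 4_5, LBL 1_2 or LBL 3_4, and that of Slc28a1 also without PBL 3_4. The other called peaks of LBL vs PBL, of which those of Slc30a3 and Slc4a11 are outside the naming rule, were lower at Slc12a3 (-0.67), Slc30a3 (-0.75) and Slc4a11 (6.41 against 14.8 CPM) and higher at Slc4a4 (0.89) and Slc45a4 (0.82).

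Few SLC loci or peaks were called between repopulated and original microglia, and a missed threshold does not show that a site did not change. The 3 loci called at the first injection (PBL vs PL, 1.32% of SLC loci, with 0.342% of all loci called, 0.175% lower) were lower values of Slc40a1, Slc39a10 and Slc16a7. Slc40a1 stood at 101 and 95.3 CPM in PL and 62, 67.5 and 66.2 in PBL (-0.58 ± 0.120, edgeR adjusted p = 0.0137), and at 83.8 to 99.7 in the other 8 libraries, so the PBL libraries were the lowest of all. The call was lost without PBL 1_2 or PBL 4_5 (edgeR adjusted p up to 0.0947). Its peak 41444 bp from the start read 19.7, 25.9 and 24.9 CPM in PBL and 32.4 to 48.4 in the other libraries, and was called in PBL vs PL (-0.87 ± 0.186, edgeR adjusted p = 0.0212; 0.0826% of all peaks called, 0.0213% lower) and in LBL vs PBL (0.79 ± 0.188, edgeR adjusted p = 0.00804). The former was kept in 2 of 5 runs, and the latter was lost without either LBL library. Slc39a10, a zinc importer, was at 402 and 500 CPM in PL and 360, 352 and 352 in PBL, and the call was kept in 1 of 5 leave-one-out runs (log2 fold change -0.50 to -0.18, edgeR adjusted p up to 0.580), the smallest value being without PL 3_4, the library at 500. After the second injection (LBL vs LL) edgeR called no SLC locus, with 0 by DESeq2 and 0.0947% of all loci called by edgeR. At an unadjusted p under 0.05 there were 20 SLC loci, without a count over all loci beside them. By peak, edgeR called 2 (0.0506% of all peaks called, 0.024% higher and 0.0267% lower), of Slc44a5 and Slc16a10, neither kept when any library was left out.

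Slc16a7 (MCT2), a monocarboxylate transporter, was the SLC locus whose LPS response differed between the arms, where 0.124% of all loci were called (0.0437% lower). Of all peaks 0.0746% were called in that difference (0.016% lower), among them 1 SLC peak, also of Slc16a7. The locus stood at 185 and 200 CPM in PP, 216 and 284 in PL, 231 and 255 in PBP, and 173, 209 and 196 in PBL. The response was 0.38 ± 0.115 in PL vs PP (edgeR adjusted p = 0.0212) and -0.32 ± 0.0955 in PBL vs PBP (edgeR adjusted p = 0.0233), and the difference was -0.70 ± 0.150 (edgeR adjusted p = 0.0363). The libraries did not overlap in either arm. The PL vs PP call was kept in 1 of 4 leave-one-out runs (log2 fold change 0.16 to 0.56), the PBL vs PBP call in 1 of 5 and the PBL vs PL call in 1 of 5. PBL was sorted on another machine than PP, PL and PBP, so the difference of responses and the sorter cannot be told apart. The difference was called in 3 of 9 leave-one-out runs (-0.88 to -0.49, adjusted p up to 0.241), and was lost without PP 1_2, PP 3_4, PBP 3_4, PBL 1_2, PBL 4_5 or PL 3_4, the library at 284.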

How the data were processed

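Per the labels' protocols, ATAC-seq libraries came from pooled sorted microglia. The deposited table gives estimated counts per peak and library in steps of 0.5 over 1 common peak set, without normalization; no source used here names the counting tool. Peak width and distance to the nearest start are in bp and age is in weeks, per the file headers. The submitters' processing notes name Bowtie2 2.2.6, MACS2 2.1.1, ChIPseeker 1.38 and GRCm38/mm10. A transposase offset shift of the reads is not mentioned.

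After rounding, edgeR 4.0.16 in R 4.3.3 was run on the counts: filterByExpr (minimum count 10), TMM, and a robust quasi-likelihood fit with 6 group means over 13 libraries. The 9 comparisons were tested two-sided and adjusted (Benjamini-Hochberg) over all tested loci or peaks, with calls at an adjusted p under 0.05 and no fold minimum. SE is the absolute log2 fold change divided by the square root of F. CPM uses TMM-scaled totals. The pipeline was tested on simulated data. DESeq2 1.42.0, other scaling, filters and distances, a replicate block and leaving out each library were the alternatives. Replicates are pools, and PBL 3_4 and PBL 4_5 share an animal number in their names.

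Members and lists were chosen with earlier results of these data known. Named genes are, per comparison and direction, the 5 called loci and 5 called peaks with the smallest p, loci called in 3 or more of the 7 two-group comparisons or in a difference of responses, and a fixed set of 30. Substrate classes follow family numbers, with Slc2a4rg-ps set aside by hand. Results for 2 genes are not reported here. RefSeq promoters matched 174 of 231 genes.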

Additional observations from a re-analysis of the deposited data

Results flagged for a closer look

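Slc16a7 was singled out because its response to a first LPS injection differed between the arms by a test of the difference itself. The locus differed by -0.70 ± 0.150 (log2 scale, PBL vs PBP minus PL vs PP, edgeR adjusted p = 0.0363), higher in 2 of 2 PL libraries than in PP and lower in 3 of 3 PBL libraries than in PBP. Its peak in intron 3 (chr10:125273726-125273942) differed by -3.05 ± 0.684 (edgeR adjusted p = 0.0360). This peak read 4.21 and 2.00 CPM in PP, 7.11 and 16 in PL, 7.32 and 9.05 in PBP, and 2.81, 3.24 and 4.40 in PBL. The peak's difference was called in 2 of 9 leave-one-out runs (-3.66 to -2.33, adjusted p up to 0.418) and kept only without PL 1_2 or PBL 4_5. PL 3_4 holds its highest value. PBL was sorted on another machine than the other 3 groups, which cannot be told apart from the difference of responses.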

How the results depend on the processing

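Directions were followed for the calls of the main fit and, at the locus level in PL vs PP and PBL vs PBP, for the fixed set. None of these calls changed direction under any alternative, while 42 single-gene values that were called in neither fit changed sign. Outside the fixed set, calls made only in an alternative fit were not followed. Calls over all loci or all peaks were not counted in these alternative fits. Leaving out 1 library in turn gave 4 to 49 SLC loci and 11 to 76 peaks in PL vs PP, 7 to 17 loci and 23 to 54 peaks in PBL vs PBP, 0 to 3 loci and 0 to 5 peaks in LL vs PL, 0 to 4 loci and 2 to 12 peaks in LBL vs PBL, 0 to 14 loci and 0 to 19 peaks in PBL vs PL, 0 to 15 loci and 0 to 17 peaks in the difference of first-LPS responses, 0 to 1 locus and 0 to 1 peak in the difference of second-LPS effects, 0 loci and 0 peaks in PBP vs PP, and 0 peaks in LBL vs LL. DESeq2 called 9 loci and 12 peaks in PL vs PP, 9 loci and 17 peaks in PBL vs PBP, 1 peak and 0 loci in LBL vs PBL, and 0 loci and 0 peaks in the other comparisons. Within 10 kb of a start, where fewer peaks enter, calls were 23 peaks in PL vs PP, 37 in PBL vs PBP, 1 in LL vs PL and 7 in LBL vs PBL, and 0 loci and 0 peaks in PBL vs PL, 0 peaks in LBL vs LL, and 0 loci and 0 peaks in the difference of first-LPS responses. Within 1 kb they were 16 loci and 13 peaks in PL vs PP, 11 loci and 15 peaks in PBL vs PBP, 1 peak in LL vs PL, 1 locus and 2 peaks in LBL vs PBL, and 0 loci and 0 peaks in PBL vs PL and in the difference of first-LPS responses, and 0 peaks in LBL vs LL. Beyond distance, the cause of these changes was not tested. Another scaling and no filter on low counts kept every count within 1.5 times.

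With the replicate block (pool name as a term), PL vs PP called 27 loci and 44 peaks, PBL vs PBP 20 loci and 48 peaks, and LBL vs PBL 2 loci and 11 peaks, all within 1.5 times of the fit without it. Of 30 pairs of same-named libraries, 4 had a correlation of deviations from the group mean above 0.1 (-0.0207 to 0.210). In a group of 2 libraries the 2 deviations mirror each other, so 2 such groups give the same value under both names. PBP with PL, for example, gave 0.114 for 1_2 and for 3_4. The 30 pairs are therefore not separate checks, and they cannot decide whether pool names pair the libraries. Most groups have 2 libraries, with at most 2772688 counts in peaks each, and this limits the precision of every value.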
